A study of Homo sapiens with 8 samples.

Results

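The serpin protease inhibitor family was measured in MIA PaCa-2 cells at 63 probe sets of 31 genes, of 49395 probe sets in all and 18132 genes with a probe set of a single annotated symbol. The members were chosen by gene symbol, as those made of SERPIN, a clade letter A to I and a number, without pseudogenes.

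Serpins are a family of proteins that share one fold, and most of them trap serine or cysteine proteases. The protease cuts an exposed loop of the serpin, the loop inserts into the body of the serpin, and the protease is left bound and distorted. Clade A serpins are mostly secreted by the liver, clade B serpins mostly stay inside cells, and some members of the family no longer inhibit proteases and serve as hormone carriers, growth regulators or chaperones.

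The serpins were followed in MIA PaCa-2, a human pancreatic carcinoma cell line, after 24 h with 30 μM pachymic acid (PA), a triterpenoid of the fungus Poria cocos, or with DMSO, its solvent. There were 4 arrays of PA-treated cells and 4 of DMSO control cells, all of the same cell line, and each Affymetrix Human PrimeView array gave 1 log2 RMA signal per probe set. An RMA signal is a background-corrected and quantile-normalized brightness, so a difference of 1 on this scale is a doubling. Cells were treated in quadruplicate and RNA was isolated from each sample, so the p-values cover the spread among these parallel treatments of 1 line, and a change in RNA per cell cannot be told apart here from a change in which cells survived.

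Family genes outside the annotation used were not analysed here. Within the family, the measured values entered through a detection limit, selected on a mean log2 signal of at least 4 in the higher group, which 38 probe sets of 21 genes passed. The family was also picked for description with the rise of SERPINB8 already known, so the values of the members are given as a description, and no count over them is evidence for the family as a whole. Just inside the limit lay a probe set of SERPINB13, with a mean of 4.01 in PA and 3.91 in DMSO arrays. Just outside lay a probe set of SERPINA1, with means of 3.99 and 3.88. Of the 38 detected probe sets, 1 of SERPINA9 and 2 of SERPINB13 reached the limit only through the PA arrays, and none only through the DMSO arrays. A member that passes in this way had to be higher in PA. The limit is a cut on signal that lies below the GC-rich background means given below. It was not checked against background controls, so a gene called detected here is not thereby shown to be expressed.

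Treated cells and control cells had the keratins of an epithelial line. KRT8, KRT18 and KRT19 had means of 11.7, 13.6 and 12.5 in PA and 11.5, 13.4 and 12.7 in DMSO arrays, and the mesenchymal VIM 14.4 in both. The epithelial markers KRT7, EPCAM and CDH1 lay near the detection limit, between 3.97 and 4.39, and the acinar PNLIP, the islet hormones GCG and SST, the hepatocyte ALB, the fibroblast DCN and the leukocyte PTPRC below it in both groups. Other markers of those cell types were above it, among them CD14 at 6.83 in PA and 7.35 in DMSO arrays, CDH5 at 7.93 and 7.54 and PRSS1 at 6.56 and 6.47, and their part in the serpin values was not tested. The GC-rich background, taken as the mean of the 8 background control probe sets whose probes hold 18 or more G or C bases, was 7.03 ± 0.082 (SD, n = 4) in PA and 6.77 ± 0.15 in DMSO arrays (exact two-sided permutation test, p = 0.0571, where 0.0286 is the smallest possible). Its part in the changes below was examined only by adding it to the fit as a covariate, and those values are given beside the genes that were called. As its mean was higher in PA arrays, that fit cannot fully separate it from the treatment. A call lost in that fit does not show where a change came from.

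The start regions of SERPINB8 and SERPINB1 are shown first because these clade B genes had the largest rise and the largest fall among serpin genes read at their brightest probe sets. At 3 of its dimmer probe sets SERPINF1 was lowered by more than SERPINB1. RefSeq windows, from 250 bases before to 50 after the start site, matched 25 of the 31 genes, SERPINF1 not among them. The capitals mark matches on either strand to the AP-1 site TGANTCA and the TATA box TATAAA in SERPINB8, and to the GC box GGGCGG in SERPINB1, whose matches lie on the other strand.
SERPINB8, GRCh38.p14, chr18:63969831-63970130, plus strand: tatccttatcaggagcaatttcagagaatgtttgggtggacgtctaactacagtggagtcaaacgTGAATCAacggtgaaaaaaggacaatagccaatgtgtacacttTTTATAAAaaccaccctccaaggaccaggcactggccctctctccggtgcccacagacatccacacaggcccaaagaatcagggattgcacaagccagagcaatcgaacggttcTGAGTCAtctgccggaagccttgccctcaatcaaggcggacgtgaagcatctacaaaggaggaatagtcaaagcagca
SERPINB1, GRCh38.p14, chr6:2841814-2842113, minus strand: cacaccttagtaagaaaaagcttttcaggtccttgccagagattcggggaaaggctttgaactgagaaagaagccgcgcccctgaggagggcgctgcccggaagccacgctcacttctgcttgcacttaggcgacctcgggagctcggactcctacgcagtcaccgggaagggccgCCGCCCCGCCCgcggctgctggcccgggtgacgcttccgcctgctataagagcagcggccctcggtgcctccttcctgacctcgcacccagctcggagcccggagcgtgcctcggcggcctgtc

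The SERPINB8 window holds the AP-1 letters at -185 and at -28 from the start site, and the TATA letters at -140 on the same strand, with an overlapping match at -142 on the other. The SERPINB1 window holds neither, and has GC boxes at -74 and -69, which overlap by 1 base. Its G and C content is 65.7%, against 48.7% for SERPINB8 and a median of 58.7% over all 35116 windows. The AP-1 letters occur in 8 of 36 serpin windows and in 7.71% of all windows, the TATA box in 9 of 36 and 11.5%, and the GC box in 9 of 36 and 45.0%. The heat shock element GAANNTTC occurs in 5 serpin windows and 6.77% of all, the ATF4 and CHOP site TGATGNAA in 3 and 3.62%, the NF-kB consensus in 5 and 11.3%, and the CRE TGACGTCA in 0 and 1.85%. None of the last 4 is in the SERPINB8 or SERPINB1 window. Several of the serpin windows belong to the same gene, and the arrays do not measure which site is used.

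PA raised 3 and lowered 2 of the 21 detected serpin genes, each read at its brightest probe set, and 16 did not pass. Raised were SERPINB8, SERPINA4 and SERPINA3, and lowered were SERPINB1 and SERPINF1. Only SERPINB8 changed by at least 1.5-fold. A gene was called at an adjusted p under 0.05 from limma, with the Benjamini-Hochberg adjustment over all 15226 genes tested, of which 9.69% were raised and 11.9% lowered (0.466% and 0.709% at 1.5-fold or more). These were 1476 raised and 1812 lowered genes, against 1161 and 2169 with each array centred on its median, which left SERPINA3 without a call and kept the other 4. The median log2 change of the serpin genes was 0.04, against 0.02 over all genes. All 4 PA arrays lay above all 4 DMSO arrays in the 3 raised genes, as in 11.9% of all genes, and below them in the 2 lowered ones, as in 14.5% of all genes. With so few members and the choice described above, nothing is read from these shares.

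**Figure D1:**
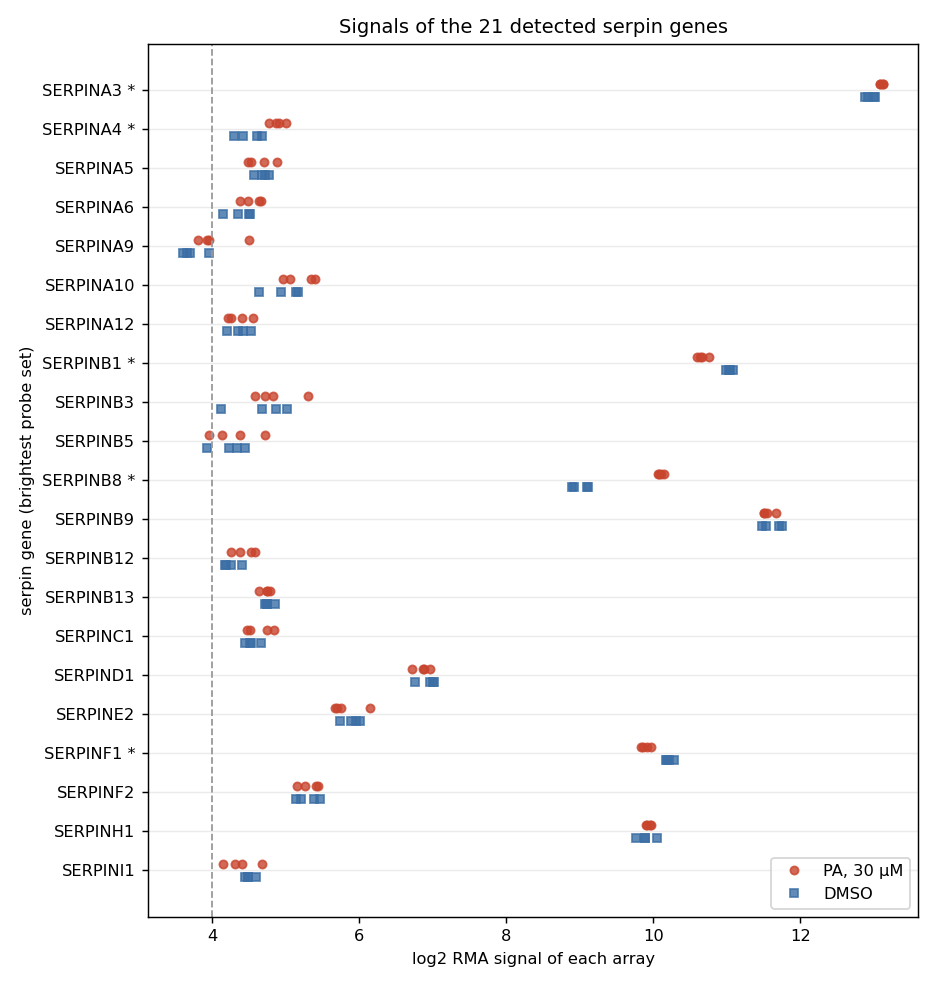
Each row is a detected serpin gene at its brightest probe set, with the log2 RMA signal of each PA array (red circles) above that of each DMSO array (blue squares), and the dashed line marks the detection limit of 4. An asterisk marks the 5 genes with an adjusted p under 0.05 over genes. In these 5 the PA and DMSO arrays do not overlap, and 14 of the 21 genes have a mean under 6.

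At the level of probe sets, 5 of the 38 were raised, against 8.0% of all 38748 tested, and 6 were lowered, against 9.07%. At 1.5-fold or more these were 3 raised, against 0.475% of all, and 0 lowered, against 0.658%. The 3 were all of SERPINB8, and 5 of the 6 lowered ones were of SERPINF1, so the probe sets count single genes several times. Probe sets of the same gene are read on the same arrays and are not independent measurements.

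**Figure D2:**
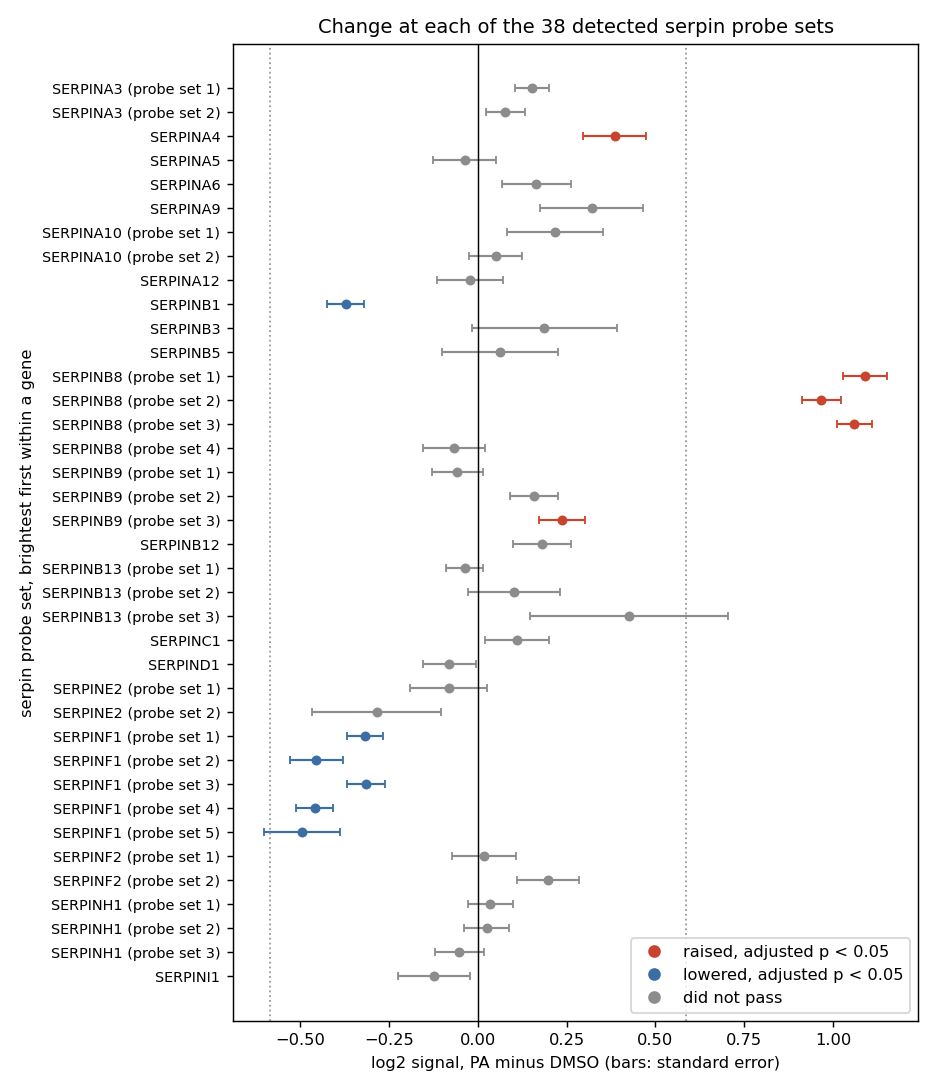
Each row is a detected serpin probe set, numbered from the brightest within a gene, with the log2 difference PA minus DMSO and its standard error from limma. Dotted lines mark 1.5-fold in either direction. SERPINB8 probe sets 1 to 3 lie beyond the line at 0.97 to 1.09, and all 5 of SERPINF1 lie between -0.50 and -0.32.

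SERPINB8, an intracellular clade B serpin that can inhibit the proprotein convertase furin, rose about as much at each of 3 probe sets. At the brightest (11748180_a_at) the PA arrays read 10.14, 10.10, 10.06 and 10.08, against 8.89, 8.92, 9.11 and 9.10 in the DMSO arrays. The groups lie far apart there, and the lowest PA array is above the highest DMSO array by more than the range of either group. The log2 change was 1.09 with a standard error of 0.061, or 2.13-fold (adjusted p = 2.85e-05 over genes). At 11728413_at the PA arrays read 8.87, 8.85, 8.85 and 8.94, against 7.82, 7.89, 8.01 and 7.92 in the DMSO arrays, a 1.96-fold rise. At 11737922_a_at they read 8.88, 8.93, 8.93 and 8.85, against 7.91, 7.85, 7.83 and 7.76, a 2.08-fold rise. Both probe sets again separate the groups fully.

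The remaining SERPINB8 probe set, 11737923_at, showed no such rise. Its PA arrays read 5.75, 5.52, 5.69 and 5.83, against 5.71, 5.59, 5.89 and 5.87 in the DMSO arrays, and the groups overlap. The log2 difference was -0.07 (standard error 0.087, adjusted p = 0.632 over probe sets). The mean of the 3 raised probe sets exceeded it by 3.59 ± 0.13 (SD, n = 4) in PA and by 2.49 ± 0.11 in DMSO arrays, a difference of 1.11, given without a test because the probe sets were grouped by how they moved. Once the GC-rich background entered the fit as a covariate, the 3 probe sets changed by 0.93, 0.88 and 1.12 and were still called, with adjusted p-values of 0.00108 to 0.00377 over probe sets. In that fit 11737923_at had a log2 difference of -0.27 (standard error 0.11) and did not pass (adjusted p = 0.228 over probe sets). SERPINB8 is the last, in GRCh38.p14 order, of the 9 serpin genes measured on chromosome 18. The 8 others are SERPINB5, SERPINB12, SERPINB13, SERPINB4, SERPINB3, SERPINB11, SERPINB7 and SERPINB10 in that order. At their 15 single-symbol probe sets group means ran from 2.93 to 4.86, and no change was called at those that were tested. All such probe sets of SERPINB4, SERPINB7, SERPINB10 and SERPINB11 were below the detection limit and not tested. The same held for the dimmer ones of SERPINB3 and SERPINB5.

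**Figure D3:**
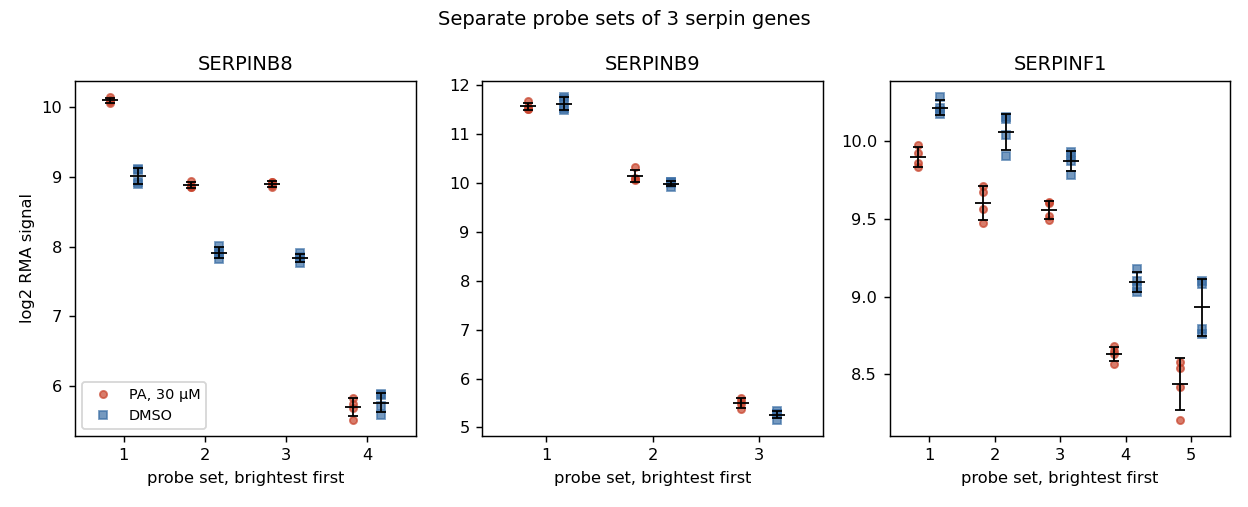
The log2 RMA signal of each PA (red circles) and DMSO array (blue squares) is shown at the detected probe sets of SERPINB8, SERPINB9 and SERPINF1, with group mean and SD (n = 4 each) in black, and each panel has its own signal axis. The groups are apart at probe sets 1 to 3 of SERPINB8 and overlap at its probe set 4, overlap at the brightest of SERPINB9, and are apart at all 5 of SERPINF1.

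SERPINB1, an intracellular inhibitor of neutrophil elastase, was lowered. The PA arrays read 10.76, 10.60, 10.66 and 10.64 at its only probe set, against 11.04, 11.09, 11.03 and 10.99 in the DMSO arrays. Every PA array lies below every DMSO array, and the log2 change was -0.37 (standard error 0.048, adjusted p = 0.00145 over genes), which leaves the PA signal at 0.772 of that in DMSO. With the covariate the log2 difference was -0.36 and was called over genes (adjusted p = 0.0485) but not over probe sets (adjusted p = 0.0665).

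SERPINB9, which protects cells from granzyme B, lies beside SERPINB1 on chromosome 6 among the members measured. Its brightest probe set (11729263_x_at) read 11.51, 11.55, 11.51 and 11.67 in PA arrays, against 11.75, 11.71, 11.48 and 11.53 in DMSO arrays, a log2 difference of -0.06 (standard error 0.073, adjusted p = 0.625 over probe sets). The groups overlap there. At the next (11744751_a_at) the PA arrays read 10.33, 10.07, 10.10 and 10.06, against 10.02, 10.01, 9.99 and 9.91, all above but with 1 PA array far from the rest, and the difference of 0.16 did not pass (adjusted p = 0.143). At the dimmest tested probe set (11729262_a_at) the readings were 5.55, 5.37, 5.47 and 5.61 in PA arrays, against 5.28, 5.27, 5.34 and 5.16 in DMSO arrays. This one was called, with a log2 change of 0.24 (adjusted p = 0.0357 over probe sets), and not with the covariate (0.19, adjusted p = 0.368). The dimmest minus the brightest probe set was -6.06 ± 0.091 (SD, n = 4) in PA and -6.36 ± 0.15 in DMSO arrays, a difference of 0.30, likewise given without a test. With the covariate the brighter 2 probe sets had log2 differences of 0.09 and 0.13, which did not pass (adjusted p = 0.693 and 0.589 over probe sets).

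The other detected clade B genes were SERPINB3, which inhibits papain-like cysteine proteases, SERPINB5 or maspin, which does not act as a protease inhibitor, SERPINB12, and SERPINB13, which inhibits cathepsin L. Their brightest probe sets had group means of 4.23 to 4.86. SERPINB3 had the widest spread of these, with 5.30, 4.58, 4.83 and 4.72 in PA and 4.12, 4.68, 4.87 and 5.01 in DMSO arrays, and its difference of 0.19 had a standard error of 0.20. At SERPINB13 the 3 tested probe sets had log2 differences of -0.04, 0.10 and 0.43, and the last had a standard error of 0.28. With the covariate SERPINB5 had a log2 difference of -0.43, against 0.06 without it, and passed in neither fit (adjusted p = 0.188 and 0.822 over probe sets). None of these genes passed with treatment alone (adjusted p of 0.142 to 0.814 over genes, SERPINB9 included). SERPINB4, SERPINB7, SERPINB10 and SERPINB11 were below the detection limit. Counting clade B as a whole, 1 of 7 genes was raised (14.3%, against 9.69% of all genes) and 1 was lowered (14.3%, against 11.9%). The other 5 did not pass. The clade B median was 0.06, against 0.02 over all genes and 0.06 over all genes with a mean under 6, and nothing is read from these shares.

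SERPINF1, the pigment epithelium-derived factor, a secreted protein that inhibits the growth of blood vessels and not proteases, was lowered at all 5 of its probe sets. At the brightest (11757026_x_at) the PA arrays read 9.83, 9.86, 9.92 and 9.97, against 10.19, 10.21, 10.28 and 10.17 in the DMSO arrays. The groups do not overlap, and the log2 change was -0.32 (standard error 0.048, adjusted p = 0.00264 over genes). At 11756312_a_at, with 8.63, 8.57, 8.65 and 8.68 in PA arrays against 9.18, 9.06, 9.10 and 9.03 in DMSO arrays, the change was -0.46 (adjusted p = 0.000962 over probe sets). The other 3 changed by -0.32, -0.46 and -0.50, with adjusted p-values of 0.00482 to 0.0143, and in each of the 5 every PA array was below every DMSO array. None reached 1.5-fold, and the lowest PA signal relative to DMSO was 0.710 at 11716014_a_at. That probe set has the widest spread, with 8.21, 8.54, 8.58 and 8.42 in PA arrays against 9.10, 9.08, 8.79 and 8.76 in DMSO arrays.

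When the covariate was added, the 5 SERPINF1 probe sets had log2 differences of -0.45 to -0.18, and only 11756312_a_at was still called (adjusted p = 0.0425 over probe sets). At the brightest probe set the difference was then -0.33 with a standard error of 0.079, against 0.051 without the covariate, and it did not pass (adjusted p = 0.0791 over probe sets and 0.0565 over genes). SERPINF2, the gene of alpha-2-antiplasmin, the main inhibitor of plasmin, is the neighbour of SERPINF1 on chromosome 17. It read 5.44, 5.15, 5.41 and 5.26 in PA arrays, against 5.46, 5.14, 5.21 and 5.38 in DMSO arrays, with full overlap and a log2 difference of 0.02 (standard error 0.090). Its dimmer probe set had a difference of 0.20 that did not pass (adjusted p = 0.155 over probe sets).

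**Figure D4:**
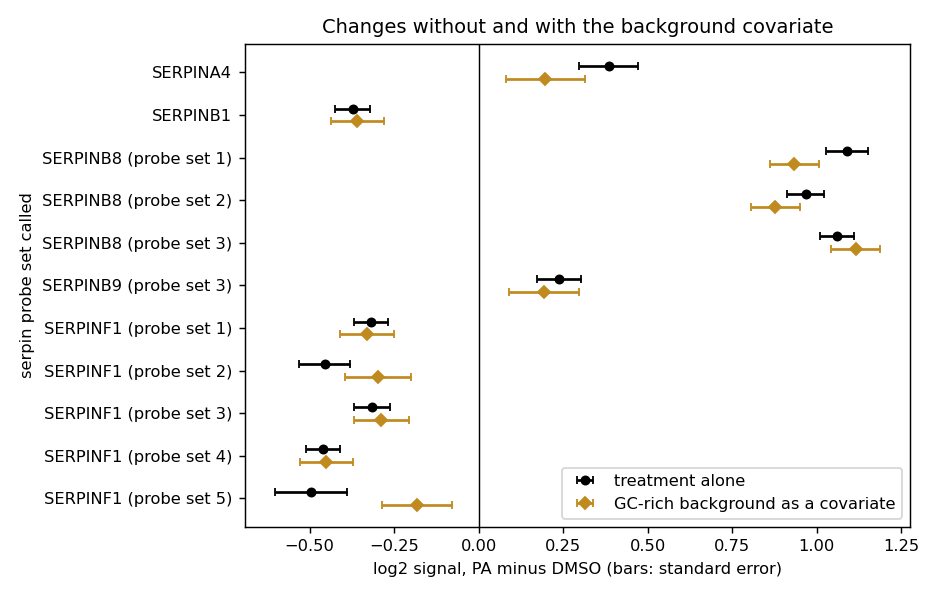
Each row is a serpin probe set called in the fit with treatment alone (black circles), with the log2 difference PA minus DMSO and its standard error, and below it the same with the GC-rich background as covariate (gold diamonds). The 3 SERPINB8 changes stay between 0.88 and 1.12, SERPINA4 has 0.39 without and 0.20 with the covariate, and the error bars are longer with it in 10 of the 11 rows.

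Of clade A, SERPINA3 and SERPINA4 were called, both raised, with small changes. SERPINA3, the alpha-1-antichymotrypsin that inhibits cathepsin G and chymase, read 13.09, 13.08, 13.12 and 13.13 at its brightest probe set (11716491_s_at) in PA arrays, against 13.01, 12.92, 13.00 and 12.88 in DMSO arrays. All PA arrays are above all DMSO arrays there, by a narrow margin. The change of 0.15 (standard error 0.045) gave an adjusted p of 0.0404 over genes and 0.0586 over probe sets. At the other probe set the PA arrays read 12.40, 12.47, 12.54 and 12.60, against 12.46, 12.43, 12.42 and 12.39, so the groups overlap, and the difference of 0.08 did not pass (adjusted p = 0.356 over probe sets). The SERPINA3 call was also lost with no filter, with centred arrays, with replicate numbers as blocks (adjusted p = 0.108), with the mean of its probe sets, with the covariate, and without any 1 PA array, DMSO replicate 2 or DMSO replicate 4 (adjusted p of 0.0558 to 0.3 over genes where lost). With the covariate its log2 difference was 0.14 at the brightest probe set and 0.13 at the other.

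SERPINA4, or kallistatin, an inhibitor of tissue kallikrein, had signals close to the detection limit. The PA arrays read 4.91, 5.0, 4.86 and 4.77, against 4.30, 4.42, 4.67 and 4.61 in the DMSO arrays, which separates the groups by 0.10 on the log2 scale. The change was 0.39 (standard error 0.087, adjusted p = 0.0146 over genes), and 0.20 with the covariate, where it did not pass (adjusted p = 0.392 over genes).

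The other detected clade A genes were SERPINA5, the protein C inhibitor, SERPINA6, the corticosteroid-binding globulin, SERPINA9, SERPINA10, which inhibits factor Xa with protein Z, and SERPINA12, or vaspin. Their brightest probe sets had group means of 3.73 to 5.19 and log2 differences of -0.04 to 0.32, and none passed (adjusted p of 0.149 to 0.884 over genes). SERPINA9 had the largest of these differences, with PA arrays at 3.93, 4.5, 3.80 and 3.95, against 3.65, 3.60, 3.95 and 3.70 in DMSO arrays, so that 1 PA array stands above all others. The median over the 7 detected clade A genes was 0.17, against 0.02 over all genes and 0.06 over all genes with a mean under 6. All of the 7 but SERPINA3 had a mean under 6, and SERPINA9 reached the limit only through the PA arrays. Nothing is read from this median. SERPINA3 is the last in order of the 9 clade A genes measured on chromosome 14, and at the 12 probe sets of the others, which include SERPINA1, the alpha-1-antitrypsin, and SERPINA11 below the limit, group means ran from 2.93 to 5.19. SERPINA7, the thyroxine-binding globulin, was below the limit as well.

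No gene of the remaining clades passed apart from SERPINF1. SERPINH1, or HSP47, an ER-resident chaperone of procollagen that heat shock is known to induce, read 9.96, 9.90, 9.91 and 9.97 at its brightest probe set in PA arrays, against 9.89, 9.77, 10.05 and 9.89 in DMSO arrays. The PA arrays lie within the range of the DMSO arrays. Its 3 probe sets had log2 differences of 0.04, 0.03 and -0.05, with standard errors of 0.063 to 0.069 and adjusted p-values of 0.640 to 0.817. SERPIND1, the heparin cofactor II that inhibits thrombin, read 6.88, 6.72, 6.86 and 6.96 in PA arrays, against 7.0, 6.96, 7.02 and 6.76 in DMSO arrays, with a difference of -0.08 (standard error 0.074). SERPINE2, or protease nexin-1, an inhibitor of thrombin and plasminogen activators, read 5.67, 5.69, 5.75 and 6.14 in PA arrays, against 5.88, 6.01, 5.74 and 5.95 in DMSO arrays. The groups overlap, and the difference was -0.08 (standard error 0.11). SERPINC1, the antithrombin, had a difference of 0.11 and SERPINI1, or neuroserpin, of -0.12, at means of 4.64 and 4.38 in PA and 4.53 and 4.51 in DMSO arrays. SERPINE3, SERPING1, the C1 inhibitor of complement, and SERPINI2 were below the limit. In all, the 10 genes not detected had 15 probe sets with group means of 2.93 to 3.99.

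Calls differed in number by level of signal. Of the 7 serpin genes with a mean of at least 6, SERPINB8 and SERPINA3 were raised, SERPINB1 and SERPINF1 lowered and 3 did not pass, while of the 14 below 6 only SERPINA4 was called. Over all genes 12% of those at 6 or above were raised and 16.8% lowered, against 5.37% and 2.87% below 6.

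A list of 42 genes held proteases that serpins act on and F3, the tissue factor, which is a cofactor and not a protease. Of the 34 measured, 4 were raised (11.8%, against 9.69% of all genes) and 6 lowered (17.6%, against 11.9%). The other 24 did not pass, and the median was 0.00. Nothing is read from these shares, nor from those of the next lists, and values with the covariate are not given for these genes. PLAU, the urokinase plasminogen activator, had a mean of 11.74 ± 0.057 (SD, n = 4) in PA and 11.35 ± 0.052 in DMSO arrays, a rise of 0.39 (adjusted p = 0.00117 over genes). The kallikrein-related peptidases KLK5, KLK6 and KLK7 were lowered, with log2 changes of -0.55, -0.58 and -0.39. FURIN, named here for its link to SERPINB8, had a log2 difference of -0.10 that did not pass (adjusted p = 0.456 over genes).

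Of 11 measured receptors, cofactors and export factors of serpins, 2 were raised (18.2%, against 9.69% of all genes) and 3 lowered (27.3%, against 11.9%), and 6 did not pass, with a median of 0.01. LRP8, a receptor of the LDL receptor family, had means of 7.95 ± 0.065 (SD, n = 4) in PA and 7.33 ± 0.091 in DMSO arrays, and PLAUR, the urokinase receptor, rose by 0.47. VLDLR, which takes up serpin and protease complexes, changed by -0.73, and LMAN1, which carries alpha-1-antitrypsin out of the ER, by -0.25. Of 25 measured protease inhibitors outside the family, of 35 listed, 3 were lowered (12%, against 11.9%) and 22 did not pass, with a median of 0.00. The lowered ones were SPINT2, an inhibitor of hepsin and matriptase, at -0.26, TIMP2, an inhibitor of metalloproteinases, at -0.17, and CAST, the inhibitor of calpains, at -0.19. TIMP1 had a difference of 0.17 that did not pass (adjusted p = 0.0597 over genes).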

How the data were processed

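Total RNA of MIA PaCa-2 cells was labelled with the 3′ IVT Express kit and hybridized to Affymetrix Human PrimeView arrays. The authors made the deposited log2 signals from the scans with the RMA method of Partek Genomics Suite (background correction, quantile normalization, median polish). GCOS, Partek and RMA stand in the submitters' processing notes without versions, and whether arrays of another cell line entered the normalization is not given in the sources used here. Every column was used.

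Symbols came from the platform annotation: 44988 probe sets carry 1 symbol, 1832 several and 2473 none listed, beside 102 controls. All 31 member symbols are in the RefSeq annotation. Another 5 probe sets shared by SERPINB3 and SERPINB4 and 2 of pseudogenes were left out.

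PA was compared with DMSO by lmFit and eBayes of limma 3.58.1 (R 4.3.3) across all probe sets with a higher group mean of at least 4, and across genes at the single-symbol probe set with the highest mean, with Benjamini-Hochberg adjustment over each table. "Over genes" and "over probe sets" name the fit behind an adjusted p. Standard errors of genes are from the fit over genes where such a p stands beside them. The 2-way ANOVA of the study could not be fitted, as 1 cell line was analysed. Members, lists and the rule for named genes (all detected serpins, and in each list the 4 genes of smallest adjusted p) were chosen with earlier results of these data known. The test was checked on simulated data. The number of arrays limits the precision. Python 3.11.15 with matplotlib 3.10.9 drew the figures.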

Additional observations from a re-analysis of the deposited data

Results flagged for a closer look

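In 3 of the 76 groups of 4 arrays at detected serpin probe sets, 1 array stood far from the other 3, by a gap past Dixon's critical value, where about 1 in 20 groups would do so by chance. SERPINB9 at 11744751_a_at had 10.33 in PA replicate 1, with 10.06 to 10.10 in the other PA arrays. SERPINE2 at 11758598_s_at had 6.14 in PA replicate 4, with 5.67 to 5.75 in the other PA arrays. SERPINB13 at 11735726_a_at had 4.85 in DMSO replicate 4, with 4.72 to 4.74 in the other DMSO arrays. None of these 3 probe sets was called.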

How the results depend on the processing

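The calls of SERPINB8 and SERPINB1 were kept under all 19 alternatives run on them over genes (log2 changes of 0.76 to 1.13 and of -0.40 to -0.35), with the value of 0.76 for SERPINB8 from the mean of its 4 probe sets. With the covariate of GC-rich background, 1 serpin gene was raised and 1 lowered (3 and 2 as reported), and 3 probe sets were raised and 1 lowered (5 and 6 as reported). The genes lost were SERPINA3, SERPINA4 and SERPINF1, and over all 15226 genes that setting called 238 raised and 232 lowered, against 1476 and 1812. The log2 differences of the lost genes were 0.14, 0.20 and -0.33 with the covariate, against 0.15, 0.39 and -0.32 without it. With the replicate block 3 serpin probe sets were raised and the other serpin counts stayed within 1.5 times, with SERPINA3 lost, while 867 genes in all were raised and 1162 lowered. Deviations from the group means of arrays with the same replicate number correlated at -0.153 to 0.0527, which gave no sign of pairing by number. The labels do not say whether the cultures were paired. At 1.5-fold or more, and at an unadjusted p under 1e-05 with 1.5-fold, 1 gene and 3 probe sets were raised and neither count of lowered ones exceeded 0. At an adjusted p under 0.01, 1 gene and 3 probe sets were raised, and 2 genes and 5 probe sets were lowered. Leaving out each array in turn gave 3 to 5 raised probe sets, the 3 without DMSO replicate 2, 6 lowered ones, 2 to 3 raised genes and 2 lowered genes. An ANOVA of treatment alone within the cell line took the place of the 2-way ANOVA of the methods, so its counts are not the study's own. At an unadjusted p under 1e-05 with 1.5-fold it raised 3 serpin probe sets and lowered 0 (47 and 11 over all). After Benjamini-Hochberg adjustment, at 0.05, these were 4 and 6. SERPINA4 was not tested with a higher group mean of at least 5. With arrays centred on their medians, the all-gene calls were 1161 raised and 2169 lowered. Of the 21 genes, 14 had a mean signal under 6.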
